A study of Homo sapiens with 6 samples.

Results

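TT cells, an established human line derived from medullary thyroid carcinoma, were treated with either of 2 small molecule inhibitors of focal adhesion kinase (FAK) and profiled on Illumina BeadChip arrays. The inhibitors were Y15 and PF-04554878, abbreviated PF, each at 10 μM and for the same time of a day by the methods of the study. Here the 2 Y15 arrays were compared directly with the 2 PF arrays, which asks how transcript levels differed between the compounds at an equal dose rather than how each departed from untreated cells. The comparison used 4 of the 6 arrays in the series and every probe that was detected, with a detection p-value below 0.01, on at least 2 of these 4 arrays. This rule kept 16718 of 47317 probes. The remaining 2 arrays came from untreated TT cells. They were left out of the test, and their levels are given beside those of the treated cells. By the methods, Y15 was dissolved in phosphate-buffered saline and PF in DMSO, while the labels of the untreated cells name no vehicle, so compound and solvent cannot be told apart. The methods describe duplicate plates, but the labels do not say that the arrays of a group came from separate cultures. The p-values therefore measure the spread between these arrays, which may be technical.

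FAK, the product of PTK2, is a non-receptor tyrosine kinase that is recruited to clustered integrins where a cell attaches to its matrix. It phosphorylates itself on a tyrosine that then docks SRC, and the complex carries signals for adhesion, movement and survival. Y15, a benzenetetraamine salt, was designed against this autophosphorylation site, whereas PF-04554878, also known as defactinib, binds the ATP pocket of the kinase domain and also inhibits the related kinase PYK2, the product of PTK2B. The compounds are not analogs of one another. Medullary thyroid carcinoma arises from thyroid C cells, which secrete calcitonin, and an activated RET receptor is its usual driver. Heat shock proteins, which recur below, are chaperones that fold or hold damaged proteins and that cells induce through heat shock factor when misfolded protein accumulates.

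Arrays of treated cells were dimmer, with a net signal over background that averaged 169.1 and 180.3 for Y15, 252 and 242.1 for PF and 420.4 and 353.2 in untreated cells, and 15215 to 18488 probes were detected per array. The study described many TT cells detaching and dying under Y15. The arrays were brought to a common distribution before the comparison, so a gene described as higher under 1 compound was higher relative to the other genes of that array. In such bulk samples, fewer cells of a type and less RNA per cell cannot be told apart. Of 24 C-cell and neuroendocrine markers on the array, 21 were detected on all 6 arrays, and the calcitonin gene CALCA was among them. Markers of thyroid follicular cells were detected on all 6 arrays for 2 of 11 genes (NKX2-1 and DIO1), fibroblast markers for 0 of 12, immune markers for 2 of 11 (CD68 and CD14) and endothelial markers for 1 of 9 (ENG), while TG, TSHR, FOXE1 and PTPRC were detected on none. The summed level of the C-cell markers was 16.32 and 16.33 on the log2 scale under Y15 and 16.65 and 16.63 under PF, that of the immune markers 10.90 and 10.82 under Y15 and 10.74 and 10.72 under PF, and that of the fibroblast markers, near background, 10.35 to 10.38 on all 4 treated arrays. The follicular markers summed to 11.11 and 11.07 under Y15 and 10.76 and 10.81 under PF, and the endothelial markers to 10.12 and 10.06 under Y15 and 10.33 and 10.25 under PF. Within these lists NKX2-1 was at 9.88 and 9.73 under Y15 and 8.98 and 9.29 under PF. CD68 was at 9.44 and 9.32 under Y15 and 8.77 and 8.64 under PF. A listed gene need not be confined to the cell type of its list. The part that other cells could have in the differences below was not tested.

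The compounds produced widely different transcript profiles. The median absolute log2 difference between arrays of the same compound was 0.095 for Y15 and 0.117 for PF, but it was 0.405 between the compounds. Only 4 probes differed by more than 1 on the log2 scale between the Y15 arrays and 1 between the PF arrays, whereas 2468 probes (14.8%) did so between the means of the compounds. By limma with Benjamini-Hochberg adjustment, 10964 of the 16718 probes (65.6%) passed at an adjusted p below 0.05 and at least 1.2-fold, 5368 (32.1%) being higher under Y15 and 5596 (33.5%) higher under PF. Among the 10341 genes, each represented by its brightest tested probe, 7078 (68.4%) passed, with 3840 (37.1%) higher under Y15 and 3238 (31.3%) higher under PF. At 2-fold or more, 1765 genes (17.1%) passed, of which 1041 (10.1%) were higher under Y15 and 724 (7.00%) higher under PF. At 4-fold or more, the numbers were 107 and 65 genes. Of the 10341 genes, 769 were undetected on both PF arrays and 481 on both Y15 arrays, and such genes entered the test only through the compound under which they were high. Among the 8269 genes detected on all 4 arrays, 2959 were higher under Y15 and 2624 higher under PF, with a median log2 difference of 0.02. The largest adjusted p among the genes that passed at 2-fold was 0.0018, and the standard error (SE) of a log2 difference had a median of 0.104 over all probes. The balance of the directions depended on how the arrays were scaled to each other. Matching the arrays by their median over all probes left 3809 probes higher under Y15 and 6091 higher under PF, and 605 and 1049 genes at 2-fold. Matching them by the median over the tested probes gave 716 and 897 genes at 2-fold. The median log2 difference over all genes (Y15 minus PF) was 0.05 as tested, -0.06 with median scaling over all probes and 0.02 with median scaling over the tested probes. Directions below are relative to this shift, and they are named where the median of a list changed sign.

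**Figure D1:**
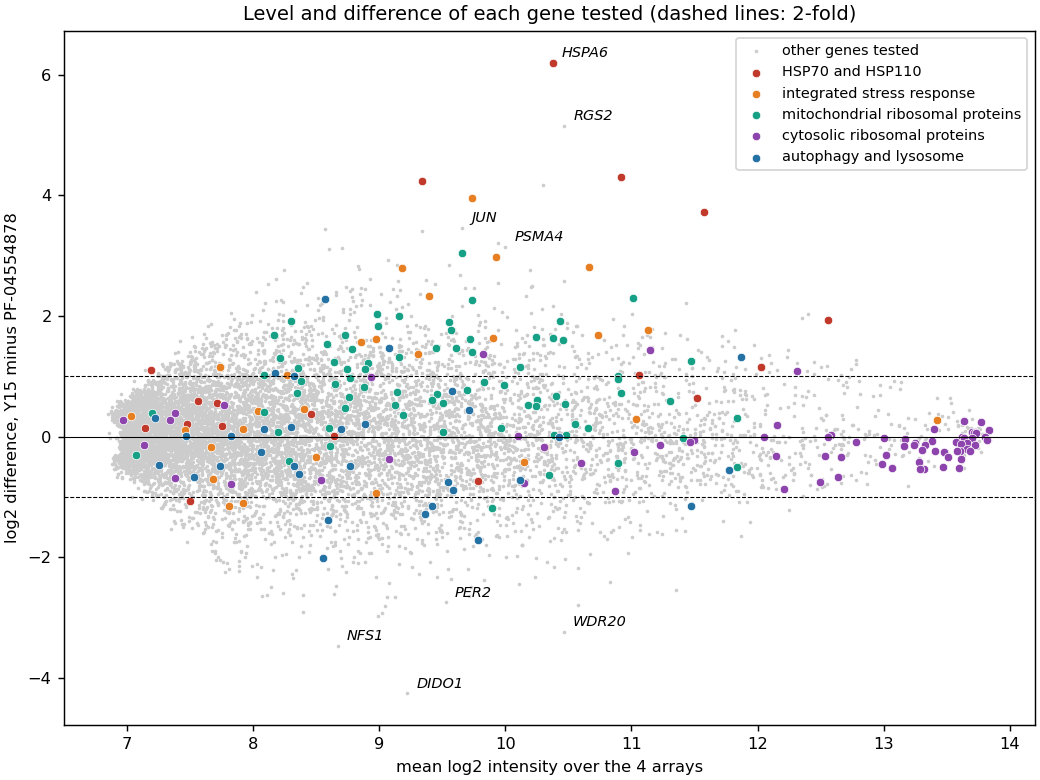
Log2 difference between the compounds (Y15 minus PF-04554878, vertical axis) against the mean log2 intensity over the 4 treated arrays (horizontal axis), with 1 point per gene, 5 lists in color and some of the genes with large differences named. Genes past the dashed 2-fold lines, 1041 above and 724 below once tested, lie at nearly all levels, HSP70 genes stand at the top and cytosolic ribosomal protein genes cluster at the right near the zero line.

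For most genes that differed at 2-fold, the untreated mean was nearer to the Y15 mean than to the PF mean. Of the 1041 genes at least 2-fold higher under Y15, the untreated mean lay nearer to the Y15 mean for 797 (76.6%) and nearer to the PF mean for 244. Their median log2 level in untreated cells was -0.16 relative to Y15 and 1.23 relative to PF. Of the 724 genes higher under PF, the untreated mean lay nearer to Y15 for 626 (86.5%) and nearer to PF for 98, with medians of 0.15 relative to Y15 and -1.20 relative to PF. These medians cover genes on either side of the untreated level. Most of the genes with the largest excess under Y15, described next, stood far above the untreated cells under Y15. The untreated arrays entered no test here.

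Heat shock and stress genes led the transcripts that were higher under Y15. HSPA6, a strictly stress-inducible HSP70 chaperone, had the largest difference of all genes. Its log2 level was 13.49 and 13.45 under Y15, 7.23 and 7.33 under PF and 7.14 and 7.04 in untreated cells. Both Y15 arrays stood far above the other 4, which lay within a narrow band. The excess under Y15 was 6.19 on the log2 scale (SE 0.10), or 73.2-fold (limma, adjusted p = 7.35e-11). A second HSPA6 probe, undetected on both PF arrays, was at least 12.5-fold higher under Y15. HSPA1A, the major stress-inducible HSP70, had levels of 13.04 and 13.11 under Y15, 8.66 and 8.87 under PF and 9.93 and 10.22 in untreated cells. Here the PF arrays lay below the untreated arrays and the Y15 arrays above them, with a difference of 4.31 between the compounds (SE 0.11, 19.8-fold, adjusted p = 1.8e-09). DNAJB1, the co-chaperone that delivers clients to HSP70, showed the same order of groups at 12.35 and 12.41 under Y15, 8.04 and 8.38 under PF and 9.68 and 9.65 in untreated cells. It was 18.1-fold higher under Y15 (adjusted p = 5.79e-09). HSPA1B differed by 3.72 and HSPA7, an annotated pseudogene, by 4.24. HSPA1A and HSPA1B are near-identical copies, as are HSPA6 and HSPA7 over much of their length, so the signal of each probe may come from either copy.

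The excess was not limited to these genes. Among 18 measured HSP70 and HSP110 chaperones and their exchange factors, 12 were higher under Y15, 2 were higher under PF and 4 did not pass, with a median log2 difference of 0.62 against 0.05 over all genes. Among 19 genes of the HSP90, HSP60 and small heat shock protein list, 14 were higher under Y15 and 1 under PF, with a median of 1.03. Among 30 HSP40 co-chaperones the counts were 17 and 8, with a median of 0.47, and among 8 subunits of the cytosolic CCT chaperonin 5 and 1, with a median of 0.33. SERPINH1, the collagen chaperone HSP47, read 10.20 and 10.37 under Y15 and 7.94 and 7.98 in untreated cells but was undetected on both PF arrays, which makes it at least 9.56-fold higher under Y15 (adjusted p = 7.43e-09). The small heat shock protein HSPB1 was at 13.32 and 13.36 under Y15, 11.34 and 11.39 under PF and 11.85 and 11.96 in untreated cells, and its relatives HSPB8 and CRYAB differed by 2.43 and 2.10. ZFAND2A, an arsenite-inducible partner of the proteasome, differed by 2.58. HSPA8, the constitutive HSP70, gave a different pattern, with levels of 13.52 and 13.53 under Y15, 13.64 and 13.68 in untreated cells and 11.51 and 11.68 under PF. Its Y15 and untreated arrays stood together and the PF arrays apart, and the compounds differed by 1.93 (3.82-fold, adjusted p = 1.16e-07). The mitochondrial chaperonin pair HSPD1 and HSPE1 differed by 1.03 and 1.24, and the HSP110 chaperone HSPH1 and the exchange factor BAG3 by 1.15 and 1.03. The exceptions included HSPA5, the endoplasmic reticulum HSP70, with a difference of 0.01 (95% interval -0.21 to 0.23) that did not pass, its compartment's HSP90 paralog HSP90B1, which was higher under PF (-0.27, a call lost without either Y15 array or the first PF array, with neqc and with all 6 arrays in 1 fit, at values of -0.23 to -0.32), and HSP90AB1 (0.13), which did not pass and was higher under PF with either median scaling (-0.33 and -0.25). HSPA2 (-1.07) and the co-chaperone DNAJB6 (-2.78) were higher under PF, although a second DNAJB6 probe was higher under Y15 by 0.87 (adjusted p = 4.84e-05).

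Heat shock factor binds alternating copies of the block nGAAn. The stretch from 250 bases upstream to 50 bases downstream of each gene start was taken from RefSeq (GRCh38.p14) and searched on both strands for the head-to-head pair GAANNTTC and the tail-to-tail pair TTCNNGAA, which can overlap where blocks follow each other. Such a stretch was matched for 8355 of the 10341 genes, and 4.63% of these held GAANNTTC and 6.18% held TTCNNGAA. Among the HSP70 list members higher under Y15, 5 of 11 held GAANNTTC (45.5%) and 3 of 11 TTCNNGAA (27.3%). Among those of the HSP90, HSP60 and small heat shock protein list, 4 of 12 (33.3%) and 3 of 12 (25%) did. In the HSP40 list, 1 of 17 and 2 of 17 members higher under Y15 did. Among the other tested members, GAANNTTC was in 1 of 5 HSP70, 0 of 4 HSP90 list and 1 of 12 HSP40 promoters, and TTCNNGAA in 0 of 5, 0 of 4 and 1 of 12. Sequences of 60 bases upstream of the start are shown for 5 heat shock genes with a large excess under Y15, each in its gene's direction, with the matched pairs in capitals. HSPA6 is on the plus strand at chr1:161524419-161524478, HSPA1A on the plus strand at chr6:31815410-31815469, SERPINH1 on the plus strand at chr11:75562153-75562212, ZFAND2A on the minus strand at chr7:1160335-1160394 and HSPA8 on the minus strand at chr11:123062307-123062366.
HSPA6: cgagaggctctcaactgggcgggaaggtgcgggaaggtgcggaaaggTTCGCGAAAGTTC
HSPA1A: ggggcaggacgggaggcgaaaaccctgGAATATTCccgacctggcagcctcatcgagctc
SERPINH1: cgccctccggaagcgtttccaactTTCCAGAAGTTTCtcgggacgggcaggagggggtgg
ZFAND2A: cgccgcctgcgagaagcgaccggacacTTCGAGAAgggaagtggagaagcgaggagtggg
HSPA8: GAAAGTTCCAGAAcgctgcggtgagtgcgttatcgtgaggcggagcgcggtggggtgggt
In HSPA6, SERPINH1 and HSPA8 the capitals hold 3 blocks in a row, so that 2 pairs overlap. No match to either pair lay upstream of the start in the windows of DNAJB1, DNAJB9, HSPH1, BAG3, HSPD1 or HSP90AA1, which says only that these letters are not in those windows.

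**Figure D2:**
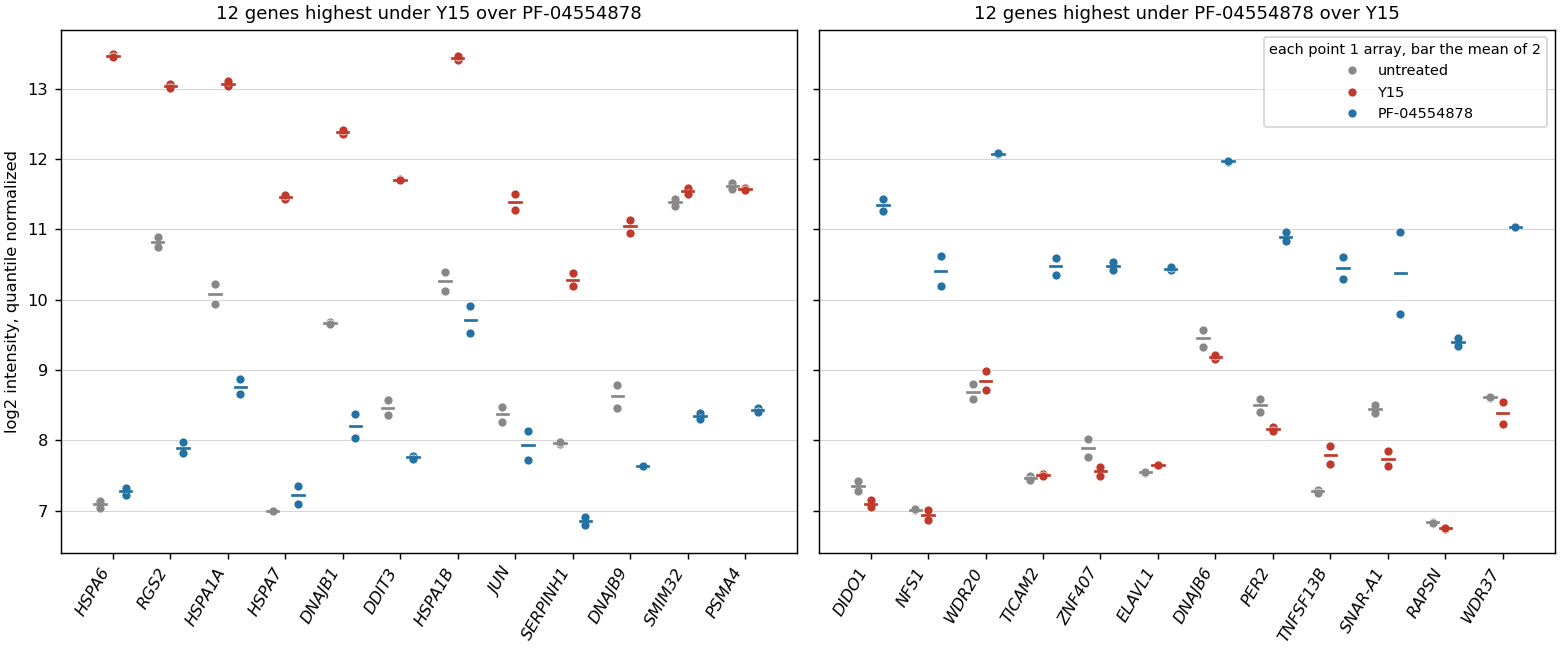
Log2 intensity, quantile normalized, on each of the 6 arrays (points, with a bar for the mean of 2) for the 12 genes with the largest difference in each direction. The arrays of a compound lie close together except for SNAR-A1 under PF-04554878 (10.97 and 9.80), and the untreated arrays lie beside the Y15 arrays in SMIM32 and PSMA4 and in most genes higher under PF-04554878.

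Many genes of the integrated stress response, by which cells slow translation and induce the factors ATF4 and CHOP, were also higher under Y15. Of 28 measured members, 18 were higher under Y15 and 6 under PF, with a median log2 difference of 0.45. DDIT3, which encodes CHOP, was at 11.72 and 11.70 under Y15, 7.78 and 7.73 under PF and 8.57 and 8.36 in untreated cells. It was the most different member, at 15.5-fold (adjusted p = 1.8e-09). ATF3, a stress-inducible repressor, read 11.34 and 11.49 under Y15, 8.36 and 8.52 under PF and 7.43 and 7.22 in untreated cells, so that both treated groups stood above the untreated arrays and the compounds differed by 2.98. PPP1R15A, which restores translation by directing the phosphatase to eIF2α, CEBPD and the secreted stress cytokine GDF15 differed by 2.82, 2.80 and 2.34, and the pseudokinase TRIB3 and the glutathione-degrading enzyme CHAC1 by 1.38 and 1.15. The difference was only 0.27 for ATF4 itself, which is controlled largely by translation, and this call was lost with either median scaling (0.07 and 0.15), with neqc, without either Y15 array and without the first PF array. EIF2AK3, the endoplasmic reticulum kinase PERK, was higher under PF (-1.15), as were VLDLR (-1.10), STC2 (-0.94) and EIF2S1 (-0.70), which encodes eIF2α. The composite element bound by C/EBP and ATF factors, searched as TGATGNAA, was in 1.72% of all promoters. It was present upstream of ATF3 at chr1:212565189-212565248 and of CHAC1 at chr15:40953235-40953294, both on the plus strand and shown with the element in capitals, and these letters were not in the upstream windows of DDIT3 or TRIB3.
ATF3: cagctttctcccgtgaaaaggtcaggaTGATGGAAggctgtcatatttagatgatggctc
CHAC1: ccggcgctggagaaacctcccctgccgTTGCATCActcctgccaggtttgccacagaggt

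The unfolded protein response of the endoplasmic reticulum was divided. Of 21 members, 9 were higher under Y15 and 10 under PF, with a median of 0.14 that was -0.25 with median scaling over all probes and -0.16 with median scaling over the tested probes. SDF2L1 and MANF, small proteins of the endoplasmic reticulum, differed by 2.67 and 1.95 toward Y15, whereas EDEM1 and OS9, which sort misfolded glycoproteins for degradation, and the chaperone HYOU1 were higher under PF by -1.29, -1.15 and -1.28. The tRNA synthetases, which charge tRNAs and include many ATF4 targets, were higher under Y15 for 11 of 18 and under PF for 3, with a median of 0.30. Amino acid synthesis and transport genes showed no such balance, with 8 of 19 higher under Y15 and 6 under PF and a median of 0.16 that was -0.08 with median scaling over all probes. The glutamine carrier SLC1A5 (1.69) and SLC3A2 (1.51), the heavy chain of amino acid exchangers, stood at 1 end of that list, and the serine synthesis enzyme PSAT1 (-1.50) and the carrier SLC38A2 (-1.41) at the other.

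Immediate early genes, transcription factor genes that respond to growth and stress signals within minutes, were higher under Y15 for 13 of 21 members and under PF for 2, with a median of 0.76. Of the 13, 2 were undetected under PF and tested only through the Y15 arrays. Among the 18 members detected on all 4 arrays the counts were 10 and 2, with a median of 0.54. JUN, a subunit of AP-1, was at 11.27 and 11.50 under Y15, 8.13 and 7.72 under PF and 8.26 and 8.48 in untreated cells. The untreated arrays lay just above the PF arrays, and the Y15 arrays were clear of both, by 11-fold against PF (adjusted p = 2.37e-08). IER5 differed by 2.60, JUND by 2.02, FOS by 1.23 and MYC by 1.21, while EGR1 (-1.06) and MAFG (-1.77) were higher under PF. RGS2, which shortens signaling from G protein-coupled receptors, had the largest difference after HSPA6. Its levels were 13.07 and 13.02 under Y15, 7.97 and 7.82 under PF and 10.89 and 10.75 in untreated cells, so that the compounds lay on opposite sides of the untreated arrays. The difference was 5.15 (35.5-fold, adjusted p = 3.9e-10). Of 16 feedback inhibitors of MAP kinase signaling, 9 were higher under Y15, 2 were higher under PF and 5 did not pass. The dual-specificity phosphatases DUSP1 (2.98), DUSP3 (1.80), DUSP5 (1.68) and DUSP16 (1.22) were higher under Y15, and the receptor tyrosine kinase antagonists SPRY4 and SPRED2 under PF. The families were not split as a whole, since SPRED1 (0.69) was higher under Y15. SPRY1 (0.02), SPRY2 (0.17), DUSP2 (0.15), DUSP6 (0.17) and DUSP22 (0.16) did not pass. DUSP1 was at 11.37 and 11.46 under Y15, 8.58 and 8.30 under PF and 9.05 and 8.75 in untreated cells. SPRY4 was at 10.04 and 10.13 under Y15, 12.62 and 12.61 under PF and 10.98 and 11.44 in untreated cells, with the untreated arrays between the compounds.

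The growth arrest genes GADD45A, GADD45B and GADD45G, which bind and activate a stress kinase of the JNK and p38 pathways, were higher under Y15 by closely similar amounts of 1.63, 1.63 and 1.66. GADD45A read 9.96 and 9.88 under Y15, 8.24 and 8.33 under PF and 8.22 and 8.28 in untreated cells. In all of these genes the PF arrays stood next to the untreated arrays and the Y15 arrays above them, GADD45B being at 8.65 and 8.69 under Y15 and 7.05 and 7.02 under PF, and GADD45G at 9.24 and 9.19 under Y15 and 7.49 and 7.62 under PF. Of the 12 genes of this list and its kinases, 4 were higher under each compound, with a median of 0.02 that was -0.06 with median scaling over all probes. The kinases MAPK8 (-1.35), MAP3K4 (-1.29) and MAPK9 (-0.72) were higher under PF and MAPK13 (0.33) under Y15, a call lost with either median scaling, with neqc and without the second array of either compound. Metallothioneins and their zinc transporter SLC30A1, which buffer and export metal ions, were higher under Y15 for 9 of 12 members and under PF for 1, with a median of 1.28. MT1X was at 10.53 and 10.60 under Y15, 7.75 and 7.68 under PF and 9.41 and 9.56 in untreated cells, the PF arrays lying lowest. MT1E differed by 2.54, SLC30A1 by 2.02 and MT2A by 1.83, and the exception was MTF1, the metal-sensing factor that drives these genes (-1.0). Metallothionein genes are close copies of one another, so their probes may share signal. The oxidative stress list gave 8 of 19 higher under Y15 and 3 under PF with a median of 0.01 (-0.18 with median scaling over all probes), led by heme oxygenase HMOX1 (1.60), the peroxidase PRDX1 (1.49) and the autophagy receptor SQSTM1 (1.32), with the mitochondrial peroxidase PRDX3 (-1.57) and the NRF2 target NQO1 (-0.46) higher under PF.

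**Figure D3:**
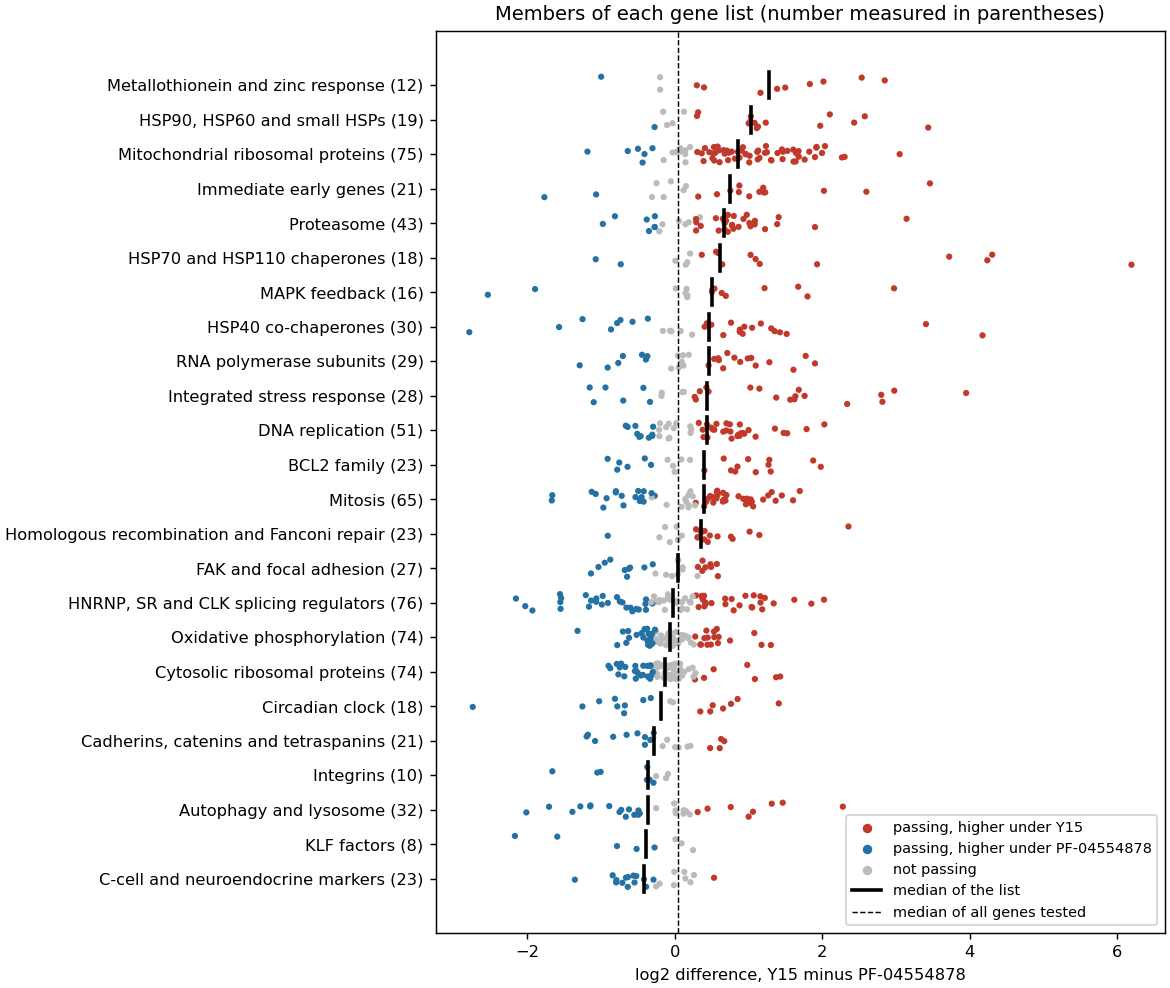
Log2 difference of each measured member (points) of 24 gene lists, Y15 minus PF-04554878 on the horizontal axis, with the median of each list as a bar, the median over all genes tested (0.05) as a dashed line and members that passed at 1.2-fold in color. The lists are ordered by their median, from metallothioneins at 1.28 to C-cell and neuroendocrine markers at -0.42.

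The transcripts with the largest excess under PF were of a different kind. DIDO1, a chromatin reader named for death induction, was at 11.26 and 11.44 under PF, 7.05 and 7.15 under Y15 and 7.28 and 7.43 in untreated cells. The Y15 and untreated arrays lay together near the detection limit, and the excess under PF was 19.0-fold (-4.25, SE 0.11, adjusted p = 1.8e-09). A second DIDO1 probe differed by -0.24 and did not pass (adjusted p = 0.0706). NFS1, the cysteine desulfurase of iron-sulfur cluster assembly, was at 10.19 and 10.62 under PF, 6.87 and 7.01 under Y15, where 1 array detected it, and 7.01 and 7.02 in untreated cells (11-fold, adjusted p = 2.07e-08). WDR20, which activates deubiquitinases, was at 12.08 and 12.08 under PF, 8.98 and 8.71 under Y15 and 8.80 and 8.58 in untreated cells (9.38-fold), and its second probe showed a difference of 0.06 (adjusted p = 0.699). The same arrangement, with Y15 beside the untreated arrays and PF alone above them, held for TICAM2, an adaptor of toll-like receptor signaling (-2.97), ZNF407 (-2.92), the mRNA-stabilizing protein gene ELAVL1 (-2.80), WDR37 (-2.64) and RAPSN, which clusters acetylcholine receptors and was undetected under Y15 (at least 5.23-fold). The B-cell survival factor TNFSF13B was higher under PF with both of its probes (-2.65 and -3.20), and so was WDR37 (-2.64 and -2.50). The small noncoding RNA SNAR-A1 was the least even of these genes, at 10.97 and 9.80 on the PF arrays against 7.84 and 7.64 on the Y15 arrays (-2.65, SE 0.27, adjusted p = 9.52e-06).

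Probes of 1 gene could disagree. For 144 of the 2455 genes with several tested probes, the probes gave opposed calls, and for 5 of these genes the opposed probes both reached 2-fold. POLR1D, a subunit shared by RNA polymerases I and III, was higher under Y15 with its brighter probe (1.78) and higher under PF with the other (-2.48). The GTPase gene GPN2 gave 1.99 and -1.25, PPHLN1 1.10 and -1.56, SPTLC1, a subunit of the enzyme that starts sphingolipid synthesis, 1.37 and -1.0, and MARCHF6, a ubiquitin ligase of the endoplasmic reticulum, 1.07 and -1.16. Further probes passed for PPHLN1 (0.37) and, toward PF, for SPTLC1 (-0.56 and -0.27), and a further MARCHF6 probe did not pass (0.01). Of 1357 genes with at least 2 passing probes, 1213 had all of them in 1 direction. Among the other 11 genes with the largest excess under Y15, PSMA4 had a second tested probe, which was also higher under Y15 (3.14 and 1.93).

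Some transcripts were detected under 1 compound alone. There were 1274 probes detected on both Y15 arrays and no PF array and 1052 detected on both PF arrays and no Y15 array. Such probes were tested only through the arrays on which they were high, so the number of them that passed is no measure of a difference. Because the silent side is only bounded, the folds are minimum values. Besides HSPA6 and SERPINH1, the genes with the largest bounds toward Y15 were DEPP1, a FOXO-induced gene (at least 6.08-fold), the tRNA methyltransferase METTL1 (at least 5.49-fold), CCDC32 (at least 5.11-fold) and the small nucleolar RNA SNORD14D (at least 4.6-fold). Toward PF they were TNFSF13B (at least 8.03-fold), RFX7 (at least 5.6-fold), the syntenin-related gene SDCBP2 (at least 5.31-fold), RAPSN, skeletal muscle actin ACTA1 (at least 5.20-fold) and the bile acid receptor GPBAR1 (at least 4.54-fold).

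The medians of the cell cycle lists lay below the untreated level under both compounds, and single genes differed between the compounds in either direction. Of 65 measured mitosis genes, 34 were higher under Y15 and 20 higher under PF, with a median difference of 0.40. Of the 34, 6 were undetected under PF and tested only through the Y15 arrays. Among the 58 mitosis genes detected on all 4 arrays, 28 were higher under Y15 and 19 under PF, with a median of 0.26. Over the 65 genes, the median difference from untreated cells was -1.09 for Y15 and -1.34 for PF. Both contrasts share the same untreated arrays. AURKA, the kinase of the spindle poles, was at 9.36 and 9.36 under Y15, 7.54 and 7.79 under PF and 10.68 and 10.77 in untreated cells. PRC1, which bundles the microtubules of the midzone, had the opposite order of the compounds, with 10.18 and 10.16 under Y15, 11.82 and 11.84 under PF and 11.42 and 11.51 in untreated cells. The groups did not overlap for either gene, and the compounds differed by 1.70 and -1.66. The anaphase activator CDC20 (1.61), AURKB (1.45) and the mitotic cyclin CCNB2 (1.37) went with AURKA. The midzone kinesin KIF23 (-1.67), BIRC5 (-1.12), which encodes survivin, and the spindle assembly factor TPX2 (-1.07) went with PRC1. KIF23 was at 7.52 and 7.33 under Y15, 9.25 and 8.92 under PF and 8.78 and 8.87 in untreated cells, and BIRC5 at 8.95 and 8.91 under Y15, 10.01 and 10.09 under PF and 10.15 and 10.19 in untreated cells. For BIRC5 the PF arrays were next to the untreated arrays and the Y15 arrays below them. CCNA2, the cyclin of S phase and mitotic entry, was at 8.53 and 8.49 under Y15, 7.63 and 7.47 under PF and 9.68 and 9.63 in untreated cells (0.96). CCNB1 (0.09), KIF11 (0.16, adjusted p = 0.178) and KIF20A (0.21, adjusted p = 0.0894) did not pass, and KIF4A was higher under PF (-0.42, adjusted p = 0.00756).

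Mitotic genes carry in their promoters the cell cycle genes homology region, searched as TTTGAA on both strands. It was in 9.71% of all promoters and in 40 of 56 promoters of the measured mitosis genes (71.4%). By compound, it was in 18 of 28 promoters of the genes higher under Y15 (64.3%) and in 14 of 17 of those higher under PF (82.4%). Whether these shares differ was not tested. Upstream stretches of 60 bases are shown for CCNB2, higher under Y15, at chr15:59105086-59105145 on the plus strand, and for KIF23 and PRC1, higher under PF, at chr15:69414266-69414325 on the plus strand and chr15:90994536-90994595 on the minus strand, with the element in capitals.
CCNB2: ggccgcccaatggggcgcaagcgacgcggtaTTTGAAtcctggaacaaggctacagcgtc
KIF23: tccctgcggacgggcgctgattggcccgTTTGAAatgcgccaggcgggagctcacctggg
PRC1: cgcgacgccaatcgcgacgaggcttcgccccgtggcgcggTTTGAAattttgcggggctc

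DNA replication genes were higher under Y15 for 29 of 51 members and higher under PF for 10, with a median of 0.44. Of these members, 4 were undetected under PF and 1 under Y15. Among the 42 detected on all 4 arrays the counts were 23 and 8, with a median of 0.42. Against untreated cells the medians over the 51 members were -0.57 for Y15 and -0.89 for PF. MCM6, a subunit of the replicative helicase, was at 10.57 and 10.41 under Y15, 8.84 and 8.56 under PF and 11.47 and 11.56 in untreated cells (1.79), so that the PF arrays were lowest. The polymerase alpha subunit POLA2 (2.03), the licensing factor CDT1 (1.53) and the clamp loader subunit RFC4 (1.48) differed likewise, and TIMELESS (-0.66) and POLE3 (-0.64) were the genes furthest toward PF. The CCAAT box was in 38.1% of all promoters, in 17 of 24 promoters of the replication genes higher under Y15 (70.8%) and in 8 of 22 of the other members (36.4%). Homologous recombination and Fanconi repair genes were higher under Y15 for 16 of 23, with a median of 0.36 and medians against untreated cells of -0.58 and -0.82. Of the 16 repair genes detected on all 4 arrays, 11 were higher under Y15 and 1 under PF, with a median of 0.43. UBE2T, the ubiquitin-conjugating enzyme of the Fanconi pathway, was at 10.40 and 10.60 under Y15, 8.39 and 7.90 under PF and 11.51 and 11.26 in untreated cells (2.36), and the damage kinase ATM was the 1 member higher under PF (-0.91). Of 32 cyclins, their kinases and inhibitors, 16 were higher under Y15 and 10 under PF. CCND1, the cyclin of G1 phase, was at 11.58 and 11.59 under Y15, 9.96 and 9.99 under PF and 11.56 and 12.17 in untreated cells (1.60), and its kinase CDK4 differed by 1.55. Cyclins that act in transcription were on the PF side, namely CCNT2 (-1.75), CCNC (-1.55) and CCNT1 (-1.29).

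The lists for protein synthesis in mitochondria and for protein degradation had medians near the untreated level under Y15 and below it under PF. Of 75 mitochondrial ribosomal protein genes, 59 were higher under Y15 and 6 under PF, with a median of 0.86 and medians against untreated cells of -0.10 for Y15 and -0.91 for PF. MRPL36 was at 11.19 and 11.17 under Y15, 8.09 and 8.17 under PF and 11.55 and 11.21 in untreated cells, an 8.29-fold difference between the compounds (adjusted p = 8.03e-09). MRPS6 followed at 12.16 and 12.16 under Y15, 9.92 and 9.79 under PF and 12.31 and 12.23 in untreated cells. For both genes the Y15 arrays stood at or beside the untreated arrays and the PF arrays were well below. MRPL17 and MRPL15 differed by 2.27 and 2.04, and MRPL44 (-1.18) was the member furthest toward PF. Among 43 proteasome genes, 30 were higher under Y15 and 7 under PF, with a median of 0.68. PSMA4, a subunit of the core particle, was at 11.58 and 11.56 under Y15, 8.46 and 8.40 under PF and 11.66 and 11.58 in untreated cells, so that Y15 and untreated arrays overlapped (8.85-fold between the compounds). PSMD6 (1.90) and the assembly factor PSMG1 (1.41) followed, whereas the ATPase subunit PSMC4 (-0.97) and the deubiquitinase PSMD14 (-0.81) were higher under PF. Mitochondrial import and carrier genes were higher under Y15 for 25 of 57, led by the translocase subunits TIMM23 (2.04) and TIMM10 (1.97), and under PF for 11. Of the 11, 4 were undetected under Y15 and tested only through the PF arrays. Among the 49 detected on all 4 arrays, 23 were higher under Y15 and 7 under PF, with a median of 0.25. Over all genes, 37.1% were higher under Y15 and 31.3% under PF.

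Cytosolic ribosomal protein genes did not share this direction. Of 74 members, 7 were higher under Y15 and 23 under PF, with a median of -0.13. The share toward PF lay near the 31.3% over all genes, and the share toward Y15 lay below the 37.1% over all genes. The ribosomal proteins RPL22 (-0.90) and RPS4X (-0.87) were furthest toward PF, and the members furthest toward Y15 were the paralogs RPS27L (1.43) and RPL26L1 (1.38), which are not the usual subunits. Many of these probes lie near the top of the intensity scale, and near-identical pseudogenes may share their signal. Oxidative phosphorylation genes were higher under Y15 for 17 of 74 and under PF for 23, with a median of -0.06. Here too the share toward PF lay near that over all genes and the share toward Y15 below it. RNA polymerase subunits gave 15 of 29 and 7, with a median of 0.46, and included POLR1H (1.90) and POLR3GL (1.61) on the Y15 side and POLR2B, the second largest subunit of RNA polymerase II (-1.29), on the PF side.

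**Figure D4:**
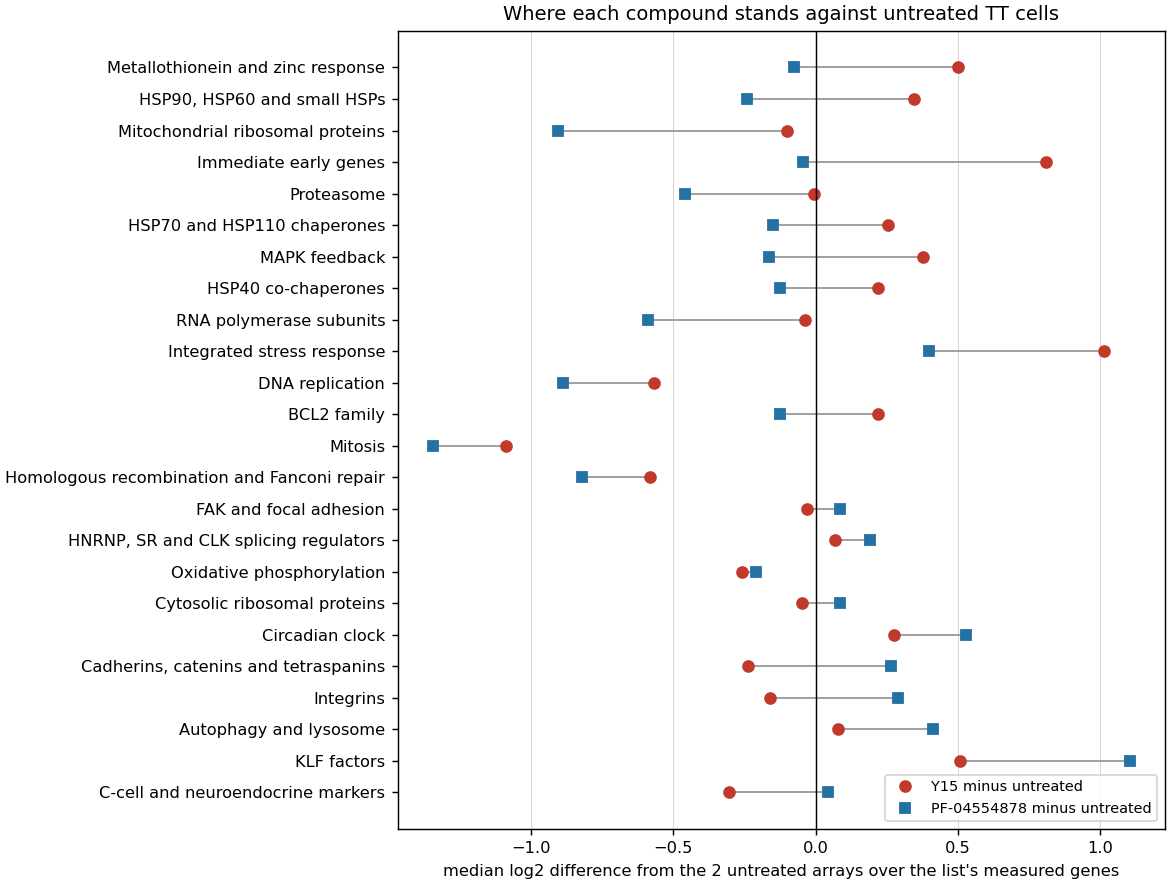
Median log2 difference of the measured members of each list from the mean of the 2 untreated arrays (horizontal axis), with circles for Y15 and squares for PF-04554878, shown as a description because both are set against the same untreated arrays. Mitosis lies lowest with medians of -1.09 for Y15 and -1.34 for PF-04554878, and mitochondrial ribosomal proteins stand at -0.10 for Y15 and -0.91 for PF-04554878.

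Genes that process RNA differed in both directions within each list. Among 45 Sm, LSm and core spliceosome genes, 20 were higher under Y15 and 10 under PF with a median of 0.23 (-0.06 with median scaling over all probes). SNRPG (2.21) and LSM2 (2.11) led on the Y15 side and SF3B1 (-1.69) and SNRNP70 (-1.60) on the PF side. Among 76 HNRNP, SR and CLK family genes, 27 were higher under each compound, with a median of -0.02. These shares lie near those over all genes, 37.1% higher under Y15 and 31.3% higher under PF. The SR protein gene SRSF7 was at 9.73 and 9.84 under Y15, 8.01 and 7.50 under PF and 9.82 and 9.69 in untreated cells (2.03). The muscle splicing factor gene RBM20 was at 8.21 and 8.16 under Y15, 10.34 and 10.34 under PF and 8.10 and 8.33 in untreated cells (-2.15), and PNISR, an SR-related gene, at 9.64 and 9.29 under Y15, 11.53 and 11.44 under PF and 9.28 and 9.49 in untreated cells (-2.02). In all of these the Y15 and untreated arrays overlapped while the PF arrays were apart, below for SRSF7 and above for RBM20 and PNISR. HNRNPDL (-1.93), the kinase DYRK1A (-1.55) and SON (-1.55), a scaffold of nuclear speckles, were also higher under PF, and SRSF3 (1.62) under Y15.

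KLF6, PER2 and WIPI2 were among the regulators higher under PF. None of 8 KLF genes was higher under Y15 and 5 were higher under PF, with a median of -0.39. KLF3 and KLF12 were undetected under Y15 and tested only through the PF arrays, and of the 5 KLF genes detected on all 4 arrays 3 were higher under PF and 0 under Y15. The call of KLF3 was lost with quantile normalization over the 4 treated arrays alone and with either median scaling. It was also lost without either Y15 array and without the second PF array. KLF6, a factor induced by injury, was at 9.24 and 9.37 under Y15, 11.39 and 11.55 under PF and 7.85 and 8.23 in untreated cells, so both compounds stood above the untreated arrays, with PF highest (-2.17). KLF12 was at least 2.62-fold higher under PF, and KLF10 differed by -0.78. Of 18 circadian clock genes, 7 were higher under Y15 (38.9%, against 37.1% of all genes) and 9 under PF (50%, against 31.3%), with a median of -0.19. The repressor PER2 was at 8.19 and 8.13 under Y15, 10.83 and 10.96 under PF and 8.40 and 8.59 in untreated cells (6.67-fold, adjusted p = 1.5e-08), and CRY2 (-1.25), CLOCK (-1.02) and CRY1 (-0.81) were on the same side. The output factors DBP (1.41) and BHLHE40 (0.85) were higher under Y15. Autophagy and lysosome genes were higher under Y15 for 8 of 32 and under PF for 16, with a median of -0.36. WIPI2, which recruits the conjugation machinery to the forming autophagosome, was at 7.54 and 7.57 under Y15, 9.46 and 9.66 under PF and 7.51 and 7.53 in untreated cells (-2.01). ATG14 (-1.70), the lysosomal membrane protein LAMP1 (-1.14) and the protease CTSD (-0.89) were also higher under PF, while GABARAPL1 (2.28) and ATG3 (1.47), a ubiquitin-like modifier and an enzyme that conjugates this family, were higher under Y15.

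The transcripts that encode the targets of the compounds differed little. PTK2, which encodes FAK, was at 11.21 and 11.12 under Y15, 11.77 and 11.38 under PF and 11.35 and 11.42 in untreated cells. The PF arrays spanned most of the difference, and the lower of them lay among the untreated arrays. PTK2 was 1.33-fold higher under PF (-0.41, 95% interval -0.69 to -0.13, adjusted p = 0.0155), but the call was lost without the first PF array (-0.22, adjusted p = 0.12), without the second Y15 array (adjusted p = 0.0569) and with the neqc background correction (adjusted p = 0.0912). PTK2B, which encodes PYK2, differed by 0.05 (95% interval -0.20 to 0.30, adjusted p = 0.726). Of 27 genes of FAK signaling and focal adhesions, 8 were higher under Y15 and 10 under PF, against 37.1% and 31.3% of all genes. The median of the list was 0.04, and it was -0.07 with median scaling over all probes. The largest differences were those of ARHGEF7 (-1.13), an activator of RAC and CDC42, RHOA (-1.03), GRB2 (-0.95) and RAC1 (-0.87) on the PF side, and HAX1 (0.59), FERMT2 (0.57), which encodes the integrin activator kindlin-2, and ZYX (0.49) on the Y15 side. Integrins, the adhesion receptors above FAK, were higher under PF for 7 of 10 and higher under Y15 for 0, with a median of -0.36. Of the 7, ITGA10 and ITGA11 were undetected under Y15 and were tested only through the PF arrays, and among the 6 integrins detected on all 4 arrays 4 were higher under PF and 0 under Y15. The calls of ITGA10 and ITGA11 were lost with quantile normalization over the 4 treated arrays alone and with either median scaling. That of ITGA10 was also lost without the second Y15 array. Of 24 integrins on the array, 14 were not tested. ITGAV was at 7.50 and 7.63 under Y15, 9.40 and 9.04 under PF and 8.66 and 8.56 in untreated cells (-1.66). ITGB1, the common beta chain, was at 9.55 and 9.77 under Y15, 10.79 and 10.62 under PF and 10.19 and 10.13 in untreated cells (-1.05). The untreated arrays lay between the compounds for both, and ITGB5 differed by -1.0.

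In the lists of cell contact and C-cell genes, more members were higher under PF than under Y15. Among 21 cadherins, catenins and tetraspanins, 4 were higher under Y15 and 10 under PF, with a median of -0.28. Over the 18 detected on all 4 arrays the counts were 4 and 7, with a median of -0.13. Of all 8269 genes detected on all 4 arrays, 2959 were higher under Y15 and 2624 under PF. Over all tested genes the shares were 37.1% and 31.3%. The epithelial cadherin CDH1 was at 9.73 and 9.90 under Y15, 11.12 and 10.89 under PF and 10.10 and 10.55 in untreated cells (-1.19), and the tetraspanin CD9 at 8.44 and 8.68 under Y15, 9.78 and 9.69 under PF and 10.14 and 9.83 in untreated cells (-1.18). CDH1 thus stood above the untreated arrays under PF, and CD9 below them under Y15. The desmosomal catenin JUP (0.67) was higher under Y15. Of 23 measured C-cell and neuroendocrine markers, 1 was higher under Y15 and 14 under PF, with a median of -0.42 and medians against untreated cells of -0.30 for Y15 and 0.04 for PF. CALCA was at 13.73 and 13.62 under Y15, 13.65 and 13.70 under PF and 13.88 and 13.65 in untreated cells, and all groups overlapped (-0.0045, 95% interval -0.22 to 0.22). RET was at 11.36 and 11.33 under Y15, 12.17 and 12.11 under PF and 12.11 and 12.38 in untreated cells (-0.79). Secretory granule genes were on the same side, SCG3 differing by -1.35, CPE by -0.79, CHGB by -0.71 and CHGA by -0.56, and SCG2 (0.53) was the marker higher under Y15, a call lost with either median scaling (0.17 and 0.25). ERBB3, a receptor of the EGF receptor family, was at 7.20 and 7.32 under Y15, 8.78 and 8.59 under PF and 6.89 and 7.00 in untreated cells (-1.43), and IL17B was at least 2.16-fold higher under PF.

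Regulators of apoptosis differed in both directions. Of 23 BCL2 family and mitochondrial apoptosis genes, 12 were higher under Y15 and 6 under PF, with a median of 0.40. Over the 19 detected on all 4 arrays the counts were 9 and 6, with a median of 0.21. The death-promoting members HRK (1.98) and BIK (1.30) and DIABLO (1.88), which blocks inhibitors of caspases, were higher under Y15, but so were the survival genes BCL2L1 (1.28) and BCL2L2 (1.27). DIABLO was at 11.39 and 11.46 under Y15, 9.57 and 9.53 under PF and 11.21 and 11.21 in untreated cells, so that the PF arrays stood apart. The survival gene MCL1 (-0.91) and the apoptosome genes CYCS (-0.78) and APAF1 (-0.75) were higher under PF. Among further genes that the study named for TT cells, the RAS-like gene RASL11B (1.56), CCDC125 (1.11) and ARHGDIA (0.85) were higher under Y15, and TACC1 (-0.46) under PF. The study's text names RASL11B as raised by PF, and its supplement lists RASL11A. Here RASL11B was at 9.22 and 9.17 under Y15, 7.62 and 7.65 under PF and 8.57 and 8.38 in untreated cells. AEN, a nuclease of p53-dependent apoptosis, was higher under PF (-0.37, adjusted p = 0.0139), a call that was lost without the second Y15 array (adjusted p = 0.0739), without the second PF array (adjusted p = 0.09) and with the neqc background correction (adjusted p = 0.0804).

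The length of a gene went along with the direction of its difference. The span from start to end in RefSeq (GRCh38.p14) had a median of 26.8 kb over all tested genes with a match, 13.2 kb for the genes at least 2-fold higher under Y15 and 45.5 kb for those higher under PF. When the genes were ordered by span and cut into 5 bins of nearly equal number, the bin with the shortest spans, 0.06 to 7.84 kb, had 16.9% of its genes at least 2-fold higher under Y15 and 3.19% under PF. In the bin with the longest, 82.9 to 2474 kb, the shares were 4.06% and 11.1%. The median log2 difference was 0.19 and 0.20 in the shorter bins, 0.07 in the middle and -0.03 and -0.16 in the longer bins. This is a description over genes, which are not independent replicates, and the span also moves with function and level. Its part in the list results was not tested.

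**Figure D5:**
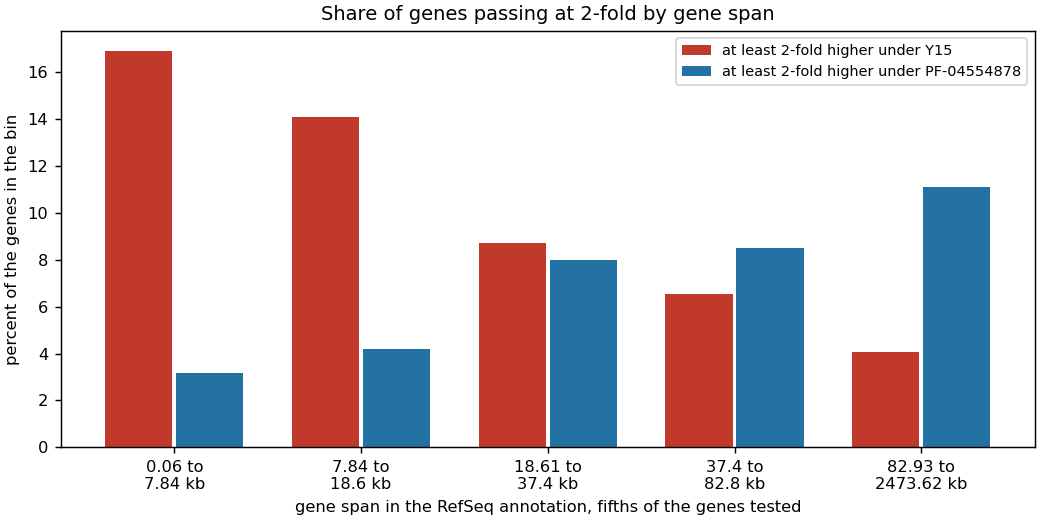
Percent of genes at least 2-fold higher under Y15 or under PF-04554878 (vertical axis) in 5 bins of tested genes ordered by genomic span in kb (horizontal axis). The share higher under Y15 goes from 16.9% in the shortest bin to 4.06% in the longest and the share higher under PF from 3.19% to 11.1%.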

How the data were processed

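RNA from untreated TT cells and from TT cells treated with Y15 or PF-04554878 was measured on 6 one-color arrays, and groups follow the labels. The deposited file of non-normalized values gave a mean bead intensity per probe and a detection p-value, as the authors exported them from GenomeStudio, for which no version is given in the sources used here. A value table deposited by the authors held quantile-normalized log2 values, and recomputing them gave the same values within 5.0e-09. The methods name a HumanRef-8 chip, but the probe identifiers are those of HumanHT-12 v4, and genes were named from the annotation of that chip. Of 47323 listed probes 47317 had values, and 30111 of these had 1 gene, 8 several and 17198 none. Symbols of 30072 probes were looked up by gene identifier.

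Log2 intensities were quantile normalized over all 6 arrays and fitted with limma 3.58.1 in R 4.3.3 to the 4 treated arrays (2 residual and 8.7 prior degrees of freedom, two-sided, Benjamini-Hochberg over all 16718 tested probes). Of the tested probes, 13301 had a gene. With 2 arrays per compound, the number of arrays limits the precision. A fold is a bound (at least) where both arrays of a compound failed to detect the probe. It sets the bright mean against the dim one, after raising each dim array to its lowest detected level. The members and gene lists were chosen with earlier results of these data known, so counts and medians of lists are given without a test, beside those over all genes. Named genes were the 12 largest differences in each direction, genes the study names for TT cells, up to 4 members of each list per direction, up to 6 genes per direction with the largest bounds and genes with opposed probes. A few further list members were named after their values were seen, among them HSPA5, HSP90AB1, HSP90B1, HSPD1, HSPE1, HSPH1, BAG3, TRIB3, CHAC1, ATF4, SRSF3, SON, OS9, BCL2L2, CALCA, CHGA and CCNB1. Provisional names (13 and 6 genes at 2-fold) were not printed. The procedure was tested on simulated data. Other normalizations, filters, fits and omitted arrays were tried. Sequences and spans came from RefSeq tables, and proteins were not used here.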

Additional observations from a re-analysis of the deposited data

How the results depend on the processing

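With all 4 treated arrays, 9692 to 11135 probes passed under the alternatives, except 8205 with detection required on all 4 and 7077 with 1 probe per gene, which tested fewer probes. Leaving out each array in turn left 9387 to 10659 probes and 1755 to 1815 genes at 2-fold. The neqc background correction, which subtracts background before the log2 scale, gave 3909 genes at 2-fold (2257 higher under Y15 and 1652 higher under PF), and 1759 of the 1765 genes were among them. The labels number the arrays of each group but do not say that arrays of equal number were handled together. The replicate differences of the compounds had a correlation of -0.10 over probes, which cannot show whether the samples were paired. The replicate block gave 11048 probes and 1765 genes at 2-fold. The crossed pairing, chosen after seeing the data, gave 11135 probes and 1765 genes.

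With median scaling over all probes, list medians changed sign for amino acid synthesis (-0.079), the unfolded protein response (-0.245), GADD45 and stress kinases (-0.064), p53 targets (-0.133), NRF2 (-0.183), FAK (-0.071), kinesins and tubulins (-0.033), Sm and LSm (-0.061), ubiquitin-conjugating enzymes (-0.087), interferon (-0.01) and HOXB genes (-0.02). Over the tested probes they did so for the unfolded protein response (-0.164), p53 targets (-0.052), NRF2 (-0.103) and ubiquitin-conjugating enzymes (-0.007). Single genes with small differences also changed sign: with median scaling over all probes CCNB1 (-0.019), HSP90AB1 (-0.331), HSPA5 (-0.153) and the brightest MARCHF6 probe (-0.263), where MAPK13 came to 0, and over the tested probes CALCA (0.033), HSP90AB1 (-0.25), HSPA5 (-0.072) and MARCHF6 (-0.183). Without 1 array PTK2B ranged from -0.061 to 0.156, CALCA from -0.06 to 0.051, HSPA5 from -0.053 to 0.072 and MARCHF6 from -0.071 to 0.092. The cause was not tested. Signal over background was lowest on the Y15 arrays, which limits dim genes most.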

Other observations

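Metabolic lists were divided between the compounds. Of 26 sterol and fatty acid synthesis genes, 13 were higher under Y15 and 6 higher under PF, with a median log2 difference of 0.24. Over the 23 detected on all 4 arrays the counts were 10 and 6, with a median of 0.07. The sterol enzymes HSD17B7 (1.29), HMGCS1 (1.23) and IDI1 (0.86) were on the Y15 side, and FASN (-1.66) and ACACA (-1.11), which build fatty acids, and the desaturase SCD (-0.89) on the PF side. Of 28 hypoxia and glycolysis genes, 12 were higher under each compound, against 37.1% under Y15 and 31.3% under PF over all genes. The median of the list was -0.17. The vasoactive peptide gene ADM (2.22), NDRG1 (1.69), the glucose carriers SLC2A1 (1.63) and SLC2A3 (1.56) and the glycolytic regulator PFKFB3 (1.51) were higher under Y15, whereas the glycolytic enzymes PGAM1 (-1.08), ALDOC (-0.94) and PFKM (-0.69) were higher under PF. Of 20 FOXO factors and targets, 10 were higher under Y15 and 6 under PF (median 0.29), led by FBXO32 (1.34) and FOXO3 (1.22) on 1 side and HBP1 (-1.61) and TXNIP (-1.19) on the other. Of 20 p53 targets, 8 were higher under each compound (median 0.05), and 5 and 7 of the 16 detected on all 4 arrays (median -0.20). PHLDA3 (1.81), PMAIP1 (0.85) and CDKN1A (0.78) were higher under Y15 and PPM1D (-2.0), SESN1 (-1.79) and TP53INP1 (-1.51) under PF. Of 15 NF-kB pathway genes, 9 were higher under Y15 and 2 under PF (median 0.32), but 5 of the 9 were undetected under PF and tested only through the Y15 arrays, and among the 10 detected on all 4 arrays the numbers were 4 and 2 (median 0.12), with the inhibitor gene NFKBIA at 1.76 and the precursor gene NFKB1 at -1.09. Of 17 caspases, inhibitors of apoptosis and death receptor genes, 7 were higher under Y15 and 6 under PF (median 0.18). The shares over all genes were 37.1% and 31.3%. Over the 14 detected on all 4 arrays, 5 were higher under each compound. The adaptor FADD was at 1.38 and the receptor TNFRSF10B at -1.17.

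Among structural and chromatin genes, 13 of 26 further kinesins and tubulins were higher under Y15 and 7 under PF (median 0.25), led by TUBA4A (2.61), TUBG1 (1.68) and TUBB4B (1.57). Histone genes, which are close copies of one another, gave 16 and 7 of 34 (median 0.18), with H4C3 at 1.52 and H2BC8 at -1.53. Of the 22 histone genes detected on all 4 arrays, 13 were higher under Y15 and 4 under PF (median 0.43). Of 263 ZNF genes, 114 were higher under Y15 and 77 under PF (median 0.19), against 66 and 60 of the 172 detected on all 4 arrays (median 0.03), and ZNF672 (1.91) and ZNF407 (-2.92) marked the ends. Of 110 structural and small nucleolar RNAs, 31 and 38 were higher (median -0.06), against 17 and 16 of the 62 detected on all 4 arrays (median 0.002), with SNORA25 at 2.37 and RNU6-1 at -1.65. Ubiquitin-conjugating enzymes gave 10 and 5 of 22 (median 0.14) and HOXB cluster genes 5 and 3 of 9 (median 0.37). Interferon response genes gave 9 and 6 of 18 (median 0.10), and growth factor receptor and RAS-RAF genes 4 and 6 of 13 (median -0.05). Some members of the last 3 lists were undetected under 1 compound and tested only through the other. Over those detected on all 4 arrays, HOXB genes gave 4 and 2 of 6 (median 0.47). Interferon response genes gave 7 and 3 of 13 (median 0.325), and growth factor receptor and RAS-RAF genes 4 and 5 of 12 (median -0.03). In the HOXB cluster HOXB6 (1.14) and HOXB8 (0.86) stood opposite HOXB4 (-1.05) and HOXB3 (-0.96). Wnt pathway genes gave 8 and 8 of 19 (median 0.14), but 2 and 7 of the 11 detected on all 4 arrays (median -0.39). The secreted Wnt antagonist DKK1 was at 8.42 and 8.55 under Y15, 6.93 and 7.03 under PF, where 1 array detected it, and 10.75 and 10.33 in untreated cells, so that both compounds lay below the untreated arrays and PF lowest (1.5). Of 21 YAP and SRF targets on the array, 6 were tested. Of these, 3 were higher under Y15, including CCN2 (1.15) and TPM1 (0.51), and 2 under PF, including TAGLN (-0.85). The call of TPM1 was lost with median scaling over all probes. The passing members TEAD4 and ACTA2 were undetected under PF and Y15 respectively, and each was tested only through the other compound. Over the 4 detected on all 4 arrays the counts were 2 and 1. Of the marker lists, NKX2-1 (0.67), DIO1 (0.47) and CD68 (0.67) were higher under Y15 and ENG (-0.64) under PF, and no fibroblast marker met the detection rule of the test.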
